A study of Mus musculus with 9 samples.

Results

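Cells show fragments of their own proteins at the surface on MHC class I molecules, and the 10 mouse genes described here supply that route: the heavy chains H2-K1 and H2-D1, their light chain B2m, the peptide transporter Tap1 and Tap2, the loading factor Tapbp, the immunoproteasome subunits Psmb8, Psmb9 and Psmb10, and the trimming peptidase Erap1. The genes were chosen by name for their place in the route, and all 10 were found by symbol among the 57010 genes of the deposited count table. Of the 10, 9 had enough counts to be tested, together with 14747 genes in all, and Psmb9 did not.

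In this route the proteasome cuts cytosolic proteins, the TAP transporter moves the peptides into the endoplasmic reticulum, aminopeptidases trim them there, and the loading complex places them on a heavy chain bound to beta-2-microglobulin. CD8 T cells read the loaded molecules at the surface. Interferon gamma and TNF are known to raise many of these genes, with NF-kappa B, IRF1 and NLRC5 among the factors that act on their promoters, and the immunoproteasome forms when the inducible catalytic subunits take the place of the constitutive ones.

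The series measured RNA by sequencing in primary cultured renal cells, a mixed culture grown from enzyme-digested kidneys of wild-type mice. All cultures were replated 24 h before treatment and then held for 6 h with PBS as the control, with 20 ng/mL TNF, or with 20 ng/mL TNF together with 1 µM ACHP, which the series describes as an NF-kappa B inhibitor. Each group had 3 libraries, and none of the groups analysed here received only ACHP. Whether the 3 libraries of a group came from separate animals or cultures is not stated, so p-values measure only the spread between these libraries, which may be technical, and the strain, age and sex of the mice are not given.

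The promoters of the members differ in exact matches to letters that NF-kappa B and interferon regulatory factors are known to bind. The 7 printed are those of the 5 genes called in any comparison (B2m, Tap1, Tapbp, Psmb10 and Erap1) and those of the heavy chains H2-K1 and H2-D1. The heavy chains were called in none but carry kappa B matches. Each window runs from 250 bases before to 50 bases after the annotated start in the RefSeq table on GRCm38.p6, which held 9 of the 10 members and not Tap2. Capitals mark exact matches, on either strand, to the kappa B consensus or to the interferon regulatory factor element GAAANNGAA. B2m carries both, H2-K1 and H2-D1 carry a pair of overlapping kappa B matches each, Erap1 carries a pair of overlapping interferon regulatory factor matches, and Tap1, Tapbp and Psmb10 carry neither.
B2m, chr2:122147437-122147736, plus strand: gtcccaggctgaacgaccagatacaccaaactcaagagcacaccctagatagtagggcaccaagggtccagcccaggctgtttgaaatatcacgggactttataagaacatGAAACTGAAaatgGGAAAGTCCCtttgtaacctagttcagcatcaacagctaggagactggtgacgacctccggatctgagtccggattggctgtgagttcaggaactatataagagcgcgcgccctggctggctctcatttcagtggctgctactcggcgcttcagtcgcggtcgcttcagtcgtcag
H2-K1, chr17:34000298-34000597, minus strand: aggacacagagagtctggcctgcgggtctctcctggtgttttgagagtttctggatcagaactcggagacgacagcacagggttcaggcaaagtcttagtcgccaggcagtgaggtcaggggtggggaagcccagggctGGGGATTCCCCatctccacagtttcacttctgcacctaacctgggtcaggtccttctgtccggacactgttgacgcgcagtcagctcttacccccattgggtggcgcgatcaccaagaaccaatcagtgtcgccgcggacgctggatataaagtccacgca
H2-D1, chr17:35262844-35263143, plus strand: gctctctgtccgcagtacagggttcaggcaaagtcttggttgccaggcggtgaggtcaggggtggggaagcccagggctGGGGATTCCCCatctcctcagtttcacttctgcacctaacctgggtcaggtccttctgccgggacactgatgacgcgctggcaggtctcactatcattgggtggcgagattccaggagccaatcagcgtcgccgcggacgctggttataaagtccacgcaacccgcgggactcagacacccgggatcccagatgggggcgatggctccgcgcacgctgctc
Erap1, chr13:74639603-74639902, plus strand: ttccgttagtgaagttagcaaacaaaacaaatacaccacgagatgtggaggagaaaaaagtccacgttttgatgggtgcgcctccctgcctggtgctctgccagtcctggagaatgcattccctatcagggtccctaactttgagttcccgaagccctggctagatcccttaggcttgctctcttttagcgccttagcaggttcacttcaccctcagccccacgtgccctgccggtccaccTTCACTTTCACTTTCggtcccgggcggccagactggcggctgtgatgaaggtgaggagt
Tap1, chr17:34187306-34187605, plus strand: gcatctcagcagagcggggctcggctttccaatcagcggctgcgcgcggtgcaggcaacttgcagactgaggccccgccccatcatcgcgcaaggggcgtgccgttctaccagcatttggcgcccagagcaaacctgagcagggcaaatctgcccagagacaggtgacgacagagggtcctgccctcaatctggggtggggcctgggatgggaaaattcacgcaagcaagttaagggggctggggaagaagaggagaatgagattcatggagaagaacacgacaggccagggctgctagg
Tapbp, chr17:33919228-33919527, plus strand: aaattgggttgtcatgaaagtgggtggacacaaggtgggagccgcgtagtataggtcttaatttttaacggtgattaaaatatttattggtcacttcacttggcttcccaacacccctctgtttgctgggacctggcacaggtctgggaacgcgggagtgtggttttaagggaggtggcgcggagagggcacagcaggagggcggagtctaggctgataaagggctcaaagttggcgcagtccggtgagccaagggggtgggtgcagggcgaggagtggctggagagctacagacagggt
Psmb10, chr8:105938343-105938642, minus strand: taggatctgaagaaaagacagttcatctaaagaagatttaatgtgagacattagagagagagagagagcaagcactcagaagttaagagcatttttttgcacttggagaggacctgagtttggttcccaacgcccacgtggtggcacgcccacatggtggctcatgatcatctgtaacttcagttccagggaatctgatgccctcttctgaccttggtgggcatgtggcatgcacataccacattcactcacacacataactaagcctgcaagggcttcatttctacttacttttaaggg

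The kappa B match of B2m began at -126 from the start and its interferon regulatory factor match at -139. The kappa B matches began at -111 and -110 in H2-K1, which has a second annotated start with the same letters in its window, and at -171 and -170 in H2-D1. The matches of Erap1 began at -9 and -3. Of 32851 promoter windows of the same length, 8.5% held the kappa B consensus and 8.6% the interferon regulatory factor element. Of the windows not printed, those of Psmb8 and Psmb9 held neither, Psmb8 held the STAT element TTCNNNGAA at -97 (8.3% of windows), and no member held TGACGT, part of the cyclic AMP response element (7.5% of windows). Psmb9 and Tap1 lie head to head and their windows share 275 bases on opposite strands. A match is a run of letters, and the series holds no measurement of binding at these windows. Only exact matches were searched, so elements that depart from these letters are missed.

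Total counts ranged from 14194295 to 20892176 per library. Kidney epithelial markers dominated the culture, with a summed 4832 to 5443 CPM (counts scaled to library totals with TMM factors), while Aqp2 had no count and Slc34a1, the phosphate transporter of the proximal tubule, had at most 0.054 CPM in any library. The libraries also carried transcripts of other cell types in unequal amounts. The 14 neuron markers summed to 50.6 CPM in PBS replicate 1 against 96.4 and 110.5 CPM in the other PBS libraries, to 68.1 to 88.6 CPM in the TNF libraries and to 53.2 to 57.2 CPM in the ACHP libraries. Snap25, a synaptic protein gene, stood at 0.071 CPM in PBS replicate 1 and at no more than 0.12 CPM in the ACHP libraries, against 3.68 CPM or more in every other library. The 16 macrophage and dendritic markers summed to 38.9 to 41.6 CPM in the PBS libraries, 40.5 to 41.8 CPM in the TNF libraries and 18.0 to 19.6 CPM in the ACHP libraries. In bulk RNA fewer cells of a type and less RNA per cell cannot be told apart.

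Expression of the class I genes spanned more than 3 orders of magnitude in the control cultures. Per kilobase of exon, B2m was the most abundant at 347 ± 11.2 RPKM (CPM divided by the exon length in kilobases, SD, n = 3), followed by H2-D1 at 61.9 ± 4.34, H2-K1 at 50.7 ± 5.18 and Tapbp at 32.7 ± 2.02 RPKM. Erap1 stood at 9.92 ± 0.32 and Psmb10 at 3.49 ± 0.32 RPKM. The lowest were Tap2 at 1.30 ± 0.079, Tap1 at 1.09 ± 0.081, Psmb8 at 0.58 ± 0.070 and Psmb9 at 0.081 ± 0.058 RPKM. No neighbours in this order had overlapping values among the 3 PBS libraries. The surface chains and the loading factor were thus abundant, and the transporter and the inducible proteasome subunits were scarce. The lengths are the union of all annotated exons of a gene, so levels per length depend on that annotation.

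**Figure D1:**
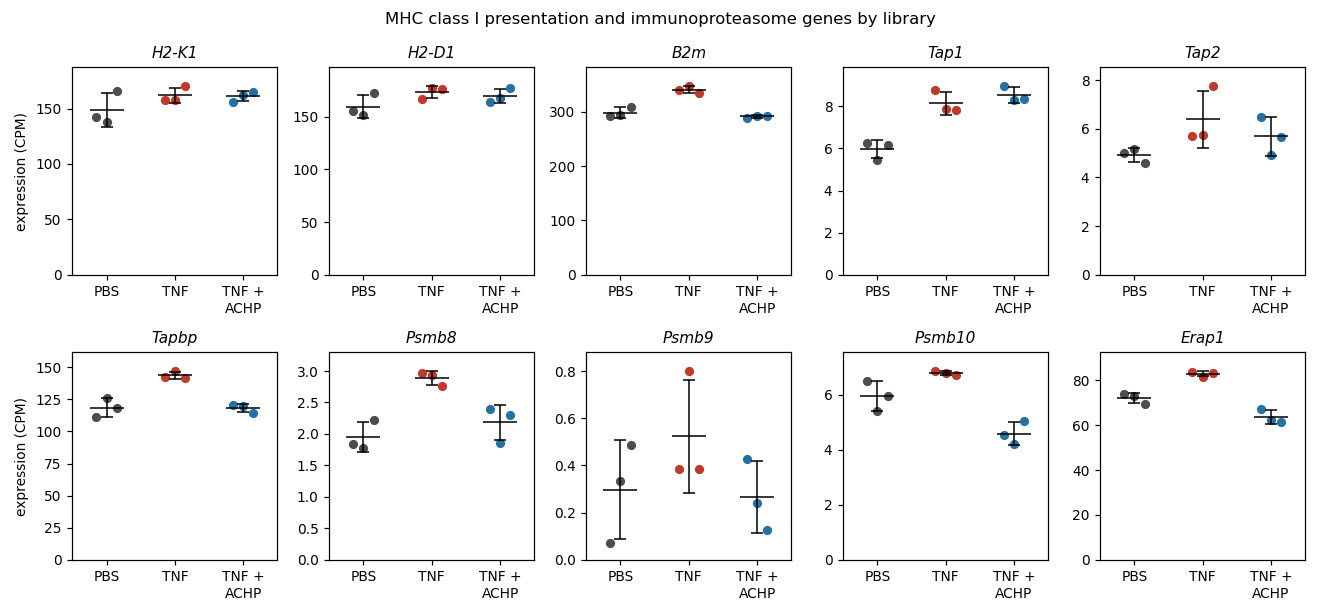
Expression of the 10 genes in CPM (linear axes from 0) in each of the 3 libraries of the PBS, TNF and TNF with ACHP groups; points are libraries and bars are the mean ± SD. B2m, Tapbp and Erap1 were higher in all 3 TNF libraries than in all libraries of both other groups, while Tap1 was high both with TNF and with TNF and ACHP.

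TNF raised 4 of the 9 tested class I genes over PBS, namely B2m, Tap1, Tapbp and Erap1, and lowered none (0 in edgeR and DESeq2, and 0 at an unadjusted p under 0.05). Over all 14747 genes tested, 6.22% were called, 3.31% higher and 2.91% lower, a called gene being one with a Benjamini-Hochberg adjusted p under 0.05 in edgeR's quasi-likelihood test. All 9 members had a positive log2 fold change, with a median of 0.20 against -0.0020 over all genes tested. In edgeR, 8 of the 9 had an unadjusted p under 0.05, as did 2763 of all 14747 genes tested. The changes were small beside the range of levels among the genes. The summed expression of the 10 genes was 795 to 855 CPM with PBS and 916 to 934 CPM with TNF. The sum of the fibroblast markers moved the other way, at 249.97 to 268 CPM in the PBS libraries and 199.6 to 214 CPM in the TNF libraries. Of the 7 tested, 2 were called lower, the collagen genes Col1a1 and Col1a2. Another 2 had a positive log2 fold change, 1 of them, Dcn, at an unadjusted p under 0.05 in edgeR. Of 11 kidney epithelial markers tested, 3 were called lower. Of the same 11, 3 had a positive log2 fold change, 2 of them, Epcam and Lcn2, at an unadjusted p under 0.05 in edgeR. DESeq2 called 1 of the 11 higher and 4 lower. The macrophage and dendritic markers had 0 of 12 called in edgeR and in DESeq2, with 2 higher and 1 lower at an unadjusted p under 0.05 in edgeR. The part of these lists in the class I results was not tested.

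With ACHP beside TNF, 4 of the 9 fell relative to TNF alone, namely B2m, Tapbp, Psmb10 and Erap1, and none rose (0 in edgeR and DESeq2, and 0 at an unadjusted p under 0.05). Over all genes tested, 7.17% were called in this comparison, 4.46% lower and 2.71% higher. The median of the members was -0.22, against 0.0034 over all genes tested, and 8 of 9 were negative, Tap1 being the exception. The summed expression with TNF and ACHP was 820 to 832 CPM, below all TNF libraries. The macrophage and dendritic markers moved in the same comparison, with 9 of the 12 tested lower and none higher, as did 7 of the 14 neuron markers. Of 11 tested kidney epithelial markers, 4 were called higher, with sums of 5089 to 5443 CPM against 4832 to 4852 CPM in the TNF libraries, and of 7 tested fibroblast markers 2 were lower, with sums of 188 to 193 CPM against 199.6 to 214 CPM. The part of the macrophage, epithelial and fibroblast lists in the results for class I genes was not tested. Fits with terms for the neuron transcripts are given below.

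Against PBS, cultures with TNF and ACHP differed in 2 of the 9 genes, Tap1 being higher and Erap1 lower. Over all genes tested, 6.04% were called in this comparison, 2.18% higher and 3.87% lower. The median of the members was 0.086, against 0.0050 over all genes tested. The 3 comparisons share libraries, so they are not independent of each other.

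**Figure D2:**
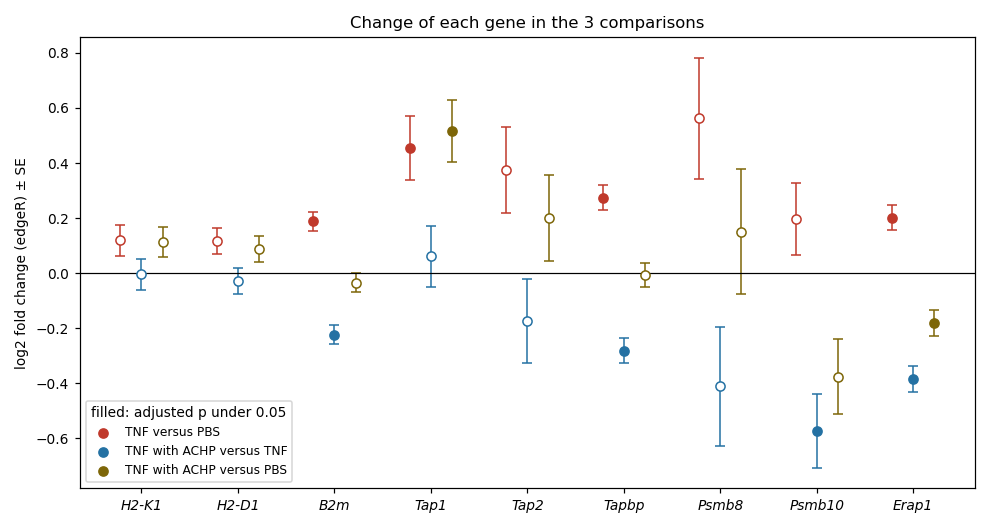
Log2 fold change (edgeR, ± SE, linear axis) of the 9 tested genes with TNF against PBS, with TNF and ACHP against TNF, and with TNF and ACHP against PBS; filled points have an adjusted p under 0.05. B2m, Tapbp and Erap1 were called above 0 with TNF and below 0 when ACHP was added, while Tap1 was called above 0 in both comparisons with PBS.

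B2m (ENSMUSG00000060802, chr2:121978167-121983564, plus strand, all gene positions being on GRCm39) encodes beta-2-microglobulin, the light chain without which most class I molecules do not reach the surface. Its expression was 292, 294 and 310 CPM in the PBS libraries, 341, 347 and 334 CPM with TNF, and 289, 293 and 293 CPM with TNF and ACHP. All TNF libraries were above both other groups, and the ACHP libraries overlapped PBS. B2m rose by 0.19 ± 0.034 (log2, SE) with TNF (edgeR adjusted p = 0.0015) and fell by 0.22 ± 0.034 when ACHP was added (edgeR adjusted p = 0.00027). Against PBS the ACHP group was at -0.035 ± 0.034, with a 95% interval from -0.11 to 0.036.

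H2-K1 (ENSMUSG00000061232, chr17:34214991-34219321, minus strand) and H2-D1 (ENSMUSG00000073411, chr17:35481706-35486475, plus strand) encode the classical heavy chains, the parts that hold the peptide. H2-K1 stood at 142, 138 and 166 CPM under PBS, 158, 158 and 170.0 CPM under TNF alone, and 156, 163 and 165 CPM under TNF plus ACHP. H2-D1 stood at 155, 151 and 172 CPM under PBS, 167, 177 and 176 CPM under TNF alone, and 164, 168 and 177 CPM under TNF plus ACHP. For both genes the groups overlapped in every comparison, with PBS replicate 3 inside the range of the treated libraries. The difference between TNF and PBS was 0.12 ± 0.055 for H2-K1 (95% interval 0.0036 to 0.23, edgeR adjusted p = 0.25) and 0.12 ± 0.047 for H2-D1 (95% interval 0.018 to 0.22, edgeR adjusted p = 0.17). Adding ACHP to TNF gave -0.0047 ± 0.055 for H2-K1 (95% interval -0.12 to 0.11) and -0.030 ± 0.047 for H2-D1 (95% interval -0.13 to 0.068). Against PBS, H2-K1 with TNF and ACHP was at 0.11 ± 0.055 and H2-D1 at 0.086 ± 0.047, neither passing the test. The 2 chains are paralogs, and reads that map to both were left out of the counts, so their levels are uncertain. Without PBS replicate 3, both passed the test with TNF (edgeR adjusted p = 0.0049 for H2-K1, at 0.21, and 0.015 for H2-D1, at 0.18) and with TNF and ACHP against PBS (0.0061 and 0.040), so 1 control library decided these calls.

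Tap1 (ENSMUSG00000037321, chr17:34406527-34416199, plus strand) and Tap2 (ENSMUSG00000024339, chr17:34422501-34435295, plus strand) encode the subunits of the transporter that carries peptides into the endoplasmic reticulum. Tap1 stood at 6.28, 5.46 and 6.17 CPM under PBS, 8.79, 7.86 and 7.81 CPM under TNF alone, and 8.95, 8.30 and 8.35 CPM under TNF plus ACHP. All 6 TNF-treated libraries, with or without ACHP, lay above the 3 PBS libraries. Tap1 rose by 0.46 ± 0.12 with TNF (edgeR adjusted p = 0.022) and by 0.52 ± 0.11 with TNF and ACHP (edgeR adjusted p = 0.0085), each against PBS. Between the treated groups it differed by 0.061 ± 0.11, with a 95% interval from -0.17 to 0.29. With counts of 89 to 174 per library, the call of Tap1 with TNF was lost with DESeq2 (adjusted p = 0.076) and, in edgeR, without PBS replicate 2 (adjusted p = 0.093), TNF replicate 1 (0.13) or TNF replicate 2 (0.053). The call against PBS with TNF and ACHP was lost without PBS replicate 2 (edgeR adjusted p = 0.059) and when the neuron transcripts entered the fit. The change was then 0.42 with the neuron list (edgeR adjusted p = 0.23) and 0.44 with a term for libraries with Snap25 (edgeR adjusted p = 0.32).

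Tap2 stood at 5.01, 5.18 and 4.60 CPM under PBS, 5.71, 5.73 and 7.75 CPM under TNF alone, and 6.50, 4.91 and 5.67 CPM under TNF plus ACHP. The PBS libraries were all below the TNF libraries, 1 of which stood well above the others, and the ACHP libraries overlapped both groups. The difference with TNF was 0.37 ± 0.16 (95% interval 0.047 to 0.70, edgeR adjusted p = 0.19), that between the treated groups -0.17 ± 0.15, and that with TNF and ACHP against PBS 0.20 ± 0.16, none passing the test. Of the exon length of Tap2, 18.5% is shared with other annotated genes, where reads were not assigned.

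Tapbp (ENSMUSG00000024308, chr17:34134873-34148266, plus strand) encodes tapasin, which tethers empty class I molecules to the TAP transporter and favours the loading of tightly bound peptides. It stood at 112, 126 and 118 CPM under PBS, 143, 147 and 142 CPM under TNF alone, and 120.3, 120.0 and 114 CPM under TNF plus ACHP. Both other groups were below the TNF libraries and overlapped each other. Tapbp rose by 0.27 ± 0.044 with TNF (edgeR adjusted p = 0.00053), fell by 0.28 ± 0.044 when ACHP was added (edgeR adjusted p = 0.00039), and stood at -0.0065 ± 0.045 against PBS with TNF and ACHP, with a 95% interval from -0.10 to 0.087. Of its exon length, 33.1% is shared with Gm19412 and Zbtb22.

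Erap1 (ENSMUSG00000021583, chr13:74787687-74841320, plus strand) encodes the aminopeptidase of the endoplasmic reticulum that trims the ends of peptides to the length class I molecules hold. It stood at 74.0, 73.1 and 69.6 CPM under PBS, 83.8, 81.6 and 83.5 CPM under TNF alone, and 67.1, 62.4 and 61.4 CPM under TNF plus ACHP. The 3 groups did not overlap, with TNF highest and TNF with ACHP lowest. Erap1 rose by 0.20 ± 0.046 with TNF (edgeR adjusted p = 0.010), fell by 0.38 ± 0.046 when ACHP was added (edgeR adjusted p = 2.2e-05), and was lower than PBS by -0.18 ± 0.047 with both (edgeR adjusted p = 0.024). The call with TNF was lost without TNF replicate 1 (edgeR adjusted p = 0.066) or TNF replicate 3 (0.053). The call below PBS was lost in 7 of 19 alternatives, with adjusted p from 0.013 to 0.17 over all of them, namely a fit of the 6 libraries compared (0.053), the fits with the neuron list (-0.20) and the Snap25 term (-0.22), and those without PBS replicate 1, PBS replicate 2, ACHP replicate 2 or ACHP replicate 3.

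The immunoproteasome subunits were scarce and their counts set the precision. Psmb10 (ENSMUSG00000031897, chr8:106662367-106665076, minus strand), which replaces Psmb7, stood at 6.49, 5.41 and 5.95 CPM under PBS, 6.86, 6.80 and 6.73 CPM under TNF alone, and 4.54, 4.20 and 5.04 CPM under TNF plus ACHP. The TNF libraries lay just above PBS, and the ACHP libraries lay below both other groups without overlap. Psmb10 fell by 0.57 ± 0.13 when ACHP was added (edgeR adjusted p = 0.011), the largest fall among the 9 tested members, while the difference with TNF was 0.20 ± 0.13 (95% interval -0.075 to 0.47) and that with TNF and ACHP against PBS -0.38 ± 0.14 (95% interval -0.66 to -0.092, edgeR adjusted p = 0.12). Without ACHP replicate 2 the fall missed the threshold (edgeR adjusted p = 0.068).

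Psmb8 (ENSMUSG00000024338, chr17:34416695-34420428, plus strand), which replaces Psmb5, had 26 to 54 counts per library. It stood at 1.83, 1.78 and 2.22 CPM under PBS, 2.96, 2.93 and 2.75 CPM under TNF alone, and 2.39, 1.86 and 2.29 CPM under TNF plus ACHP. Expression was highest in the TNF libraries, and the other 2 groups overlapped. Its difference with TNF, 0.56 ± 0.22 (95% interval 0.10 to 1.02, edgeR adjusted p = 0.16), was the largest of the 9 and did not pass the test at this depth, and adding ACHP gave -0.41 ± 0.22 (95% interval -0.86 to 0.042). Against PBS the ACHP group was at 0.15 ± 0.23. Psmb9 (ENSMUSG00000096727, chr17:34400961-34406738, minus strand), which replaces Psmb6, was counted 1, 6 and 9 times under PBS, 7, 12 and 6 times under TNF alone, and 7, 5 and 2 times under TNF plus ACHP. These counts overlap between all groups, and the filter on low counts left Psmb9 out of the test. In a fit without the filter its differences were 0.72 ± 0.59 with TNF, -0.94 ± 0.60 with ACHP against TNF and -0.22 ± 0.64 with ACHP against PBS (edgeR adjusted p = 0.74, 0.59 and 0.95). Of the exon length of Psmb8, 14.7% is shared with Gm20496, and Psmb9 and Tap1 share bases at their ends.

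The make-up of the catalytic subunits was compared as the share that each inducible subunit holds of itself and its constitutive partner, per exon length. The constitutive subunits stood at 30.4 ± 3.13 RPKM for Psmb5, 39.6 ± 0.47 RPKM for Psmb6 and 22.4 ± 1.27 RPKM for Psmb7 with PBS (SD, n = 3), and none of the 3 was called in any comparison by edgeR or DESeq2, with 1 of the 9 values, that of Psmb6 with TNF and ACHP against PBS, at an unadjusted p under 0.05. Psmb8 held 1.86% ± 0.087 in the PBS libraries, 2.88% ± 0.13 in the TNF libraries and 2.01% ± 0.24 in the ACHP libraries. Psmb10 held the largest share, at 13.5% ± 1.06, 15.1% ± 0.95 and 10.4% ± 1.26, and Psmb9 the smallest, at 0.20% ± 0.14, 0.35% ± 0.15 and 0.17% ± 0.11, in the same order. In every group the constitutive subunit was thus the main transcript of each pair per exon length. The annotated exon lengths differ within pairs, at 3381 bases for Psmb8 against 899 for Psmb5. For Psmb10 the length is 1705 bases against 3421 for Psmb7. The size of the shares and their order between pairs depend on these lengths. The TNF libraries lay above PBS without overlap for Psmb8, by 1.02 percentage points (exact two-sided permutation test, p = 0.1), and the ACHP libraries lay below TNF for Psmb8 by -0.88 and for Psmb10 by -4.66 percentage points (exact permutation p = 0.1 for each). Psmb10 also held less with TNF and ACHP than with PBS, by -3.07 percentage points (exact permutation p = 0.1). With 3 libraries against 3, a p of 0.1 is the smallest possible, and the 9 tests had Benjamini-Hochberg adjusted p from 0.23 to 0.8 (exact permutation tests).

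**Figure D3:**
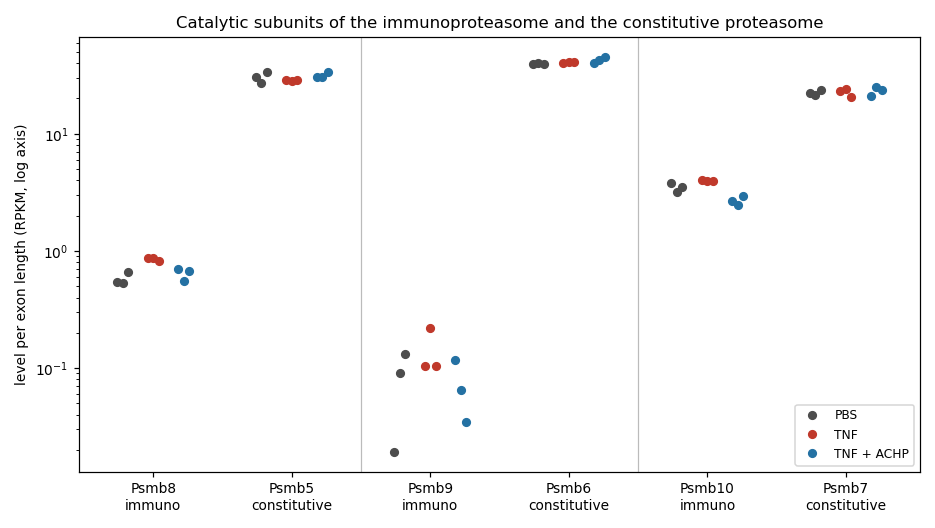
Level per exon length (RPKM, log axis) of each inducible catalytic subunit beside its constitutive partner, with 1 point per library. Psmb8, Psmb9 and Psmb10 lie below Psmb5, Psmb6 and Psmb7 in all 9 libraries, and Psmb10 is lowest in the 3 libraries with TNF and ACHP.

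Calls among the genes that act beside the members are given list by list. Over all genes tested, 3.31% were called higher with TNF, and 4.46% lower with ACHP relative to TNF. Among other class I heavy chains, H2-Q4, a non-classical heavy chain gene, was the only 1 of 11 tested that rose with TNF and the only 1 that fell with ACHP. It stood at 11.998, 13.7 and 13.9 CPM under PBS, 16.5, 20.1 and 17.9 CPM under TNF alone, and 13.2, 12.9 and 15.1 CPM under TNF plus ACHP. Its TNF libraries lay above both other groups, with changes of 0.45 ± 0.095 (edgeR adjusted p = 0.0058) and -0.40 ± 0.094 (edgeR adjusted p = 0.011). H2-Q4 belongs to a family of close copies, so its counts are uncertain. Without TNF replicate 2 the rise missed the threshold (edgeR adjusted p = 0.054), and the fall was called in 15 of 19 alternatives, not with the neuron list (-0.27, edgeR adjusted p = 0.23), the Snap25 term, nor without TNF replicate 2 or ACHP replicate 2. Among 14 partners in loading and trimming, Tapbpl, a tapasin-related peptide editor, rose by 0.31 ± 0.077 with TNF (edgeR adjusted p = 0.020) and fell by 0.27 ± 0.076 with ACHP (edgeR adjusted p = 0.038). The rise of Tapbpl was called in 14 of 19 alternatives (adjusted p 0.017 to 0.13), not in DESeq2, with the Snap25 term, nor without PBS replicate 1, TNF replicate 1 or TNF replicate 2. Its fall was called in 10 of 19 (0.024 to 0.84), not in DESeq2, with the neuron list or the Snap25 term, nor when any TNF or ACHP library was left out. Calr and Pdia3, chaperones of the loading complex, fell with ACHP relative to TNF by 0.20 ± 0.036 and 0.18 ± 0.040, and Calr was also lower than PBS by -0.20 ± 0.036. The fall of Pdia3 was not called with the Snap25 term nor without TNF replicate 1.

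Among the proteasome genes outside the catalytic pairs, Psma6, an alpha-ring subunit, rose by 0.22 ± 0.038 with TNF and fell by 0.13 ± 0.038 with ACHP, the only 1 of 11 structural subunits called. The fall was called in 10 of 19 alternatives, with adjusted p from 0.023 to 0.43, and was lost with no filter on low counts, with thinned counts, with the neuron list or the Snap25 term, and without any 1 of the TNF libraries or of ACHP replicates 1 and 2. Psme1 and Psme2 encode the activator that caps the proteasome after interferon. Psme2 stood at 43.3, 41.3 and 43.4 CPM under PBS, 55.8, 55.1 and 52.4 CPM under TNF alone, and 49.2, 43.8 and 52.8 CPM under TNF plus ACHP, and rose by 0.35 ± 0.062 with TNF (edgeR adjusted p = 0.0011). Its ACHP libraries lay above PBS and reached the TNF range, with a difference from TNF of -0.17 ± 0.061 (edgeR adjusted p = 0.10). Psme1 showed 0.16 ± 0.055 with TNF (edgeR adjusted p = 0.11) and fell by 0.20 ± 0.055 with ACHP (edgeR adjusted p = 0.034). Of 10 activator and assembly genes tested, these were the only calls, 1 with TNF and 1 with ACHP. The fall of Psme1 was not called in DESeq2, with the Snap25 term, nor without TNF replicate 1, TNF replicate 3 or ACHP replicate 2.

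Of 13 tested factors known to act on class I promoters, 2 rose with TNF and the same 2 fell with ACHP. Irf1, an interferon regulatory factor that binds many class I pathway promoters, stood at 19.8, 23.6 and 20.3 CPM under PBS, 31.2, 33.6 and 28.7 CPM under TNF alone, and 24.1, 19.0 and 20.3 CPM under TNF plus ACHP. Both other groups lay below the TNF libraries, with a rise of 0.55 ± 0.088 and a fall of 0.57 ± 0.088 (edgeR adjusted p = 0.00051 and 0.00034). Nfkb1, which encodes an NF-kappa B subunit, rose by 0.30 ± 0.044 with TNF and fell by 0.28 ± 0.044 with ACHP. Nlrc5, the class I transactivator, had low counts, at 1.27, 0.95 and 0.97 CPM under PBS, 1.43, 1.199 and 1.67 CPM under TNF alone, and 1.16, 1.48 and 1.08 CPM under TNF plus ACHP. Its groups overlapped, and the difference with TNF was 0.44 ± 0.31 (edgeR adjusted p = 0.49).

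Transcripts of the 5 interferon genes listed were not detected, and other interferon genes were not examined. Ifnb1, Ifna4, Ifng, Ifnl2 and Ifnl3 had 0 counts in all 9 libraries. A count of 0 allows up to 0.14 to 0.21 CPM, depending on the library (3 counts, counting error only). This limit does not cover reads that map to several genes, which were left out of the counts. Of the 16 genes listed for interferon signalling, the 11 tested were 4 receptor chains and 7 kinases and transcription factors of the pathway, and Ifngr2 and Ifngr1 were the only ones called. Ifngr2, a chain of the interferon gamma receptor, rose by 0.40 ± 0.058 with TNF and fell by 0.30 ± 0.058 with ACHP (edgeR adjusted p = 0.00019 and 0.0026). Ifngr1, the other chain, fell by 0.13 ± 0.040 with ACHP (edgeR adjusted p = 0.047), a call held in 9 of 19 alternatives and lost in DESeq2, with total counts alone, with thinned counts, with the neuron list or the Snap25 term, and without TNF replicate 2, TNF replicate 3 or any 1 ACHP library.

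**Figure D4:**
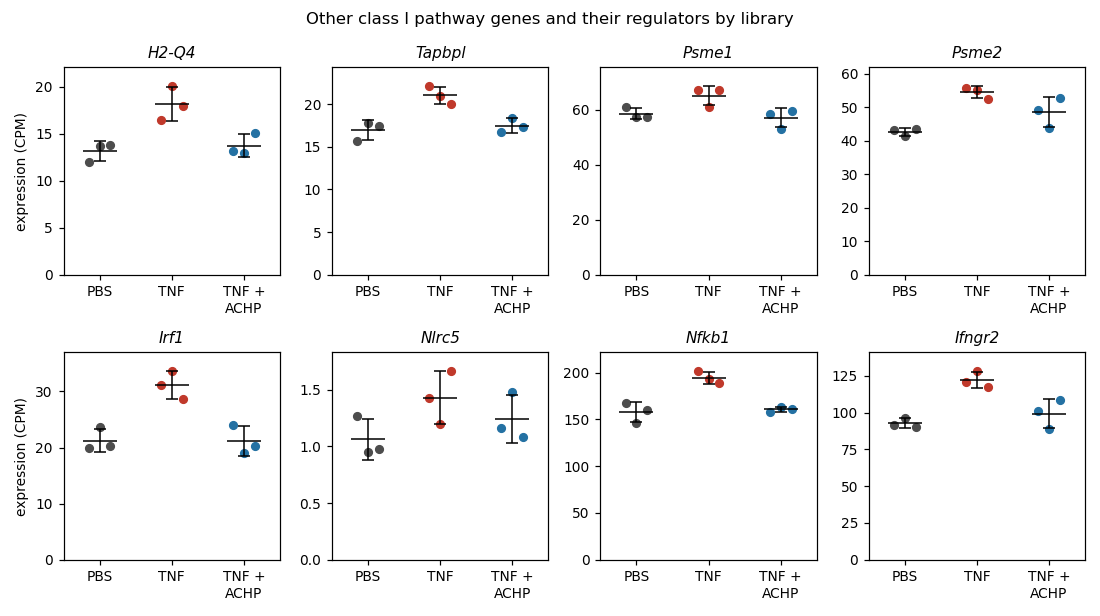
Expression in CPM (linear axes from 0) of 8 genes that act beside the class I members, by library; points are libraries and bars are the mean ± SD. H2-Q4, Tapbpl, Irf1, Nfkb1 and Ifngr2 were higher in all TNF libraries than in all libraries of both other groups, while Psme2 with TNF and ACHP reached the TNF range and the groups of Nlrc5 overlapped.

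The genes of MHC class II presentation, which serve CD4 T cells and are found mainly in macrophages, dendritic cells and B cells, were described beside them. With TNF, 0 of 7 tested were called by edgeR or DESeq2 and 1 had an unadjusted p under 0.05. Ctss, a lysosomal protease of the class II route, fell by 2.80 ± 0.28 with ACHP relative to TNF, and Cd74, the invariant chain, fell by 1.92 ± 0.35 (edgeR adjusted p = 1.6e-06 and 0.0015), the 2 calls among 7 tested. The class II molecule genes themselves, named here after their values were seen, were not called with ACHP relative to TNF. They were at -0.27 for H2-Ab1 (95% interval -1.08 to 0.53), -0.36 for H2-Eb1 (-1.74 to 1.03), -0.29 for H2-DMa (-1.12 to 0.54) and -0.20 for H2-DMb1 (-0.81 to 0.40), with edgeR adjusted p = 0.75, 0.82, 0.74 and 0.76. The intervals are wide, so whether these genes changed cannot be read from them. The class II list summed to between 10.95 and 14.5 CPM with PBS or TNF and to between 5.82 and 6.88 CPM with TNF and ACHP, where the macrophage and dendritic markers stood at 18.0 to 19.6 CPM. The part of these cells in the class II values was not tested. Markers of T, B and NK cells summed to at most 0.35 CPM in any library, with Cd3e, Cd3g, Ncr1, Klrb1c and Nkg7 at 0 counts in all 9. The summed class I genes with TNF and ACHP were at 820 to 832 CPM, inside the PBS range of 795 to 855 CPM. Most of this sum is B2m, H2-K1 and H2-D1, so it does not show the scarcer members. In this comparison Tap1 lay above PBS, and Psmb10 and Erap1 lay below PBS, without overlap.

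**Figure D5:**
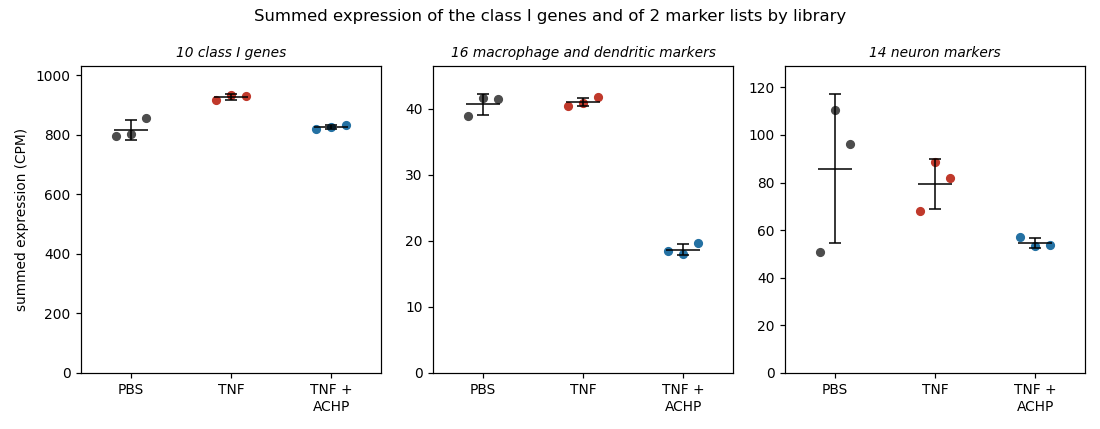
Summed expression in CPM (linear axes from 0) of the 10 class I genes, 16 macrophage and dendritic markers and 14 neuron markers, by library; points are libraries and bars are the mean ± SD. The macrophage and dendritic markers are at 18.0 to 19.6 CPM in the ACHP group and at 38.9 CPM or more elsewhere. The sum of the class I genes with ACHP lies within the PBS range, and the neuron markers are low in PBS replicate 1 and with ACHP.

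With the neuron list in the fit, the calls of B2m, Tapbp, Psmb10 and Erap1 with ACHP relative to TNF held. With a term for the libraries that carry Snap25, only Erap1 among the members was still called lower with ACHP relative to TNF. B2m was then at -0.17 (edgeR adjusted p = 0.23), Tapbp at -0.15 (edgeR adjusted p = 0.44) and Psmb10 at -0.77 (edgeR adjusted p = 0.17). In this fit the difference between the treated groups rests on the contrast of PBS replicate 1 with the other PBS libraries, since all TNF libraries carry Snap25 and no ACHP library does. Outside the members, Calr (-0.21), Pdia3 (-0.24), Psma6 (-0.14), Psme1 (-0.28), Ifngr2 (-0.27), Irf1 (-0.42), Ifngr1 (-0.10) and Cd74 (-1.60) kept their sign but were no longer called, H2-Q4 was at -0.20 and Tapbpl at -0.099, neither called, and Nfkb1 and Ctss were still called. For TNF against PBS, the calls of B2m, Tap1, Tapbp and Erap1 held with this term, and that of Tapbpl was lost at 0.26 (edgeR adjusted p = 0.072).

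Among 10208 genes of at least 5 CPM searched, those whose log2 expression followed the mean profile of the 9 tested members most closely over the 9 libraries were Psmd10 (Pearson r = 0.967), Bdkrb2 (0.966), Dock10 (0.963), Clic4 (0.963) and Ccl20 (0.960). These values are a description, since the libraries share treatments. Ccl20, a chemokine, changed far more than any member, by 1.71 ± 0.064 with TNF and by -1.39 ± 0.062 when ACHP was added. Psmd10, a proteasome assembly chaperone, changed by 0.26 ± 0.052 with TNF, within the range of the members.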

How the data were processed

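RNA of 9 libraries, 3 per group, was analysed. The deposited table holds raw counts per gene, made by the authors with featureCounts 2.0.1 at its default settings on Ensembl 109 annotation (GRCm39), per the file headers, and STAR, DESeq2 and mm10 are named in the submitters' processing notes. All 10 members lie at GRCm39 positions that do not overlap their GRCm38 ones, so GRCm39 is used for genes. Counting ignored strand and left out reads that map or belong to several genes.

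Groups were taken from the labels. Counts were tested with edgeR 4.0.16 (R 4.3.3, limma 3.58.1): filterByExpr, TMM factors (0.993 to 1.01), 1 quasi-likelihood fit of all 9 libraries, 14747 genes, Benjamini-Hochberg adjustment over all genes, threshold 0.05. SEs were derived from the F statistic. CPM used TMM-scaled totals. Symbols matched 52029 IDs holding 99.6% of counts. Replicates differed beyond sampling noise (chi-square per degree of freedom 1.81 to 6.00). On counts simulated for TNF against PBS over 14747 genes, 27 of 50 genes changed 1.2-fold were recovered, 47 of 50 changed 1.5-fold and 50 of 50 changed 2-fold. Of 179 calls, 5 were false. The simulation gave every gene the same spread and changed no genes of low counts, so recovery in the real libraries may be lower.

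The members and lists were chosen with earlier results of these data known. Named were all members, up to 4 called genes of each pathway list with the largest change, Psmb5, Psmb6, Psmb7, Nlrc5, Irf1, Psme1 and Psme2, and the 5 genes most like the members (log2 of CPM plus 0.5). Alternatives were DESeq2 1.42.0, other scalings and filters, a fit of 6 libraries, a replicate block, a neuron-marker covariate, thinned counts and each library left out. A term for libraries above 1 CPM of Snap25 was added after the data were seen.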

Additional observations from a re-analysis of the deposited data

How the results depend on the processing

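Over the 27 values of single members, 477 results under alternatives kept their direction and side of the threshold, 20 lost a call, 4 gained one and 12 changed sign, in 4 values that lay between -0.030 and 0.061 as reported. In TNF against PBS the calls of B2m and Tapbp held in all 19 alternatives. Between libraries of the same replicate number, correlations of the deviations from group means were -0.12 to 0.17. Libraries of different numbers were not compared, so these values cannot settle whether the numbers pair the libraries. With a replicate block, 512 genes were higher and 433 lower with TNF against PBS, 443 and 732 with ACHP against TNF, and 372 and 616 with ACHP against PBS, and no member's call changed. With ACHP against TNF, the neuron list covariate left 168 genes higher and 295 lower, and the calls of B2m, Tapbp, Psmb10 and Erap1 held. The Snap25 term left 44 and 99, with 1 member lower. With ACHP against PBS, 862 genes were lower with no filter. Fitting only the 6 libraries left 148 higher and 345 lower, the neuron list covariate 73 and 146, and the Snap25 term 53 and 109. No member was then called lower (0 in each), and 0 were called higher with the covariate or the term. H2-K1 with ACHP against TNF changed sign to 0.022 with the covariate, 0.000951 with thinned counts and 0.093 with the term, and H2-D1 to 0.030 with the term. Tap1 with ACHP against TNF changed sign to -0.022 and -0.050, and Tapbp against PBS to 0.074 and 0.084, with covariate and term. The cause was not tested. Leaving out 1 library at a time, genes higher and lower numbered 252 to 502 and 216 to 478 with TNF against PBS, 157 to 527 and 384 to 824 with ACHP against TNF, and 134 to 427 and 357 to 731 with ACHP against PBS. Members called higher with TNF numbered 2 (without TNF replicate 1) to 6, members lower with ACHP against TNF 3 to 4, and against PBS 0 to 3 were higher and 0 to 1 lower. The share of Psmb9 with ACHP against PBS differed by -0.11 to 0.035 percentage points. The log2 fold change of H2-K1 with ACHP against TNF ranged from -0.025 to 0.032, and that of Tapbp with ACHP against PBS from -0.051 to 0.039. Counts under about 50 per library (Psmb8, Psmb9, Nlrc5) limit what this depth can show.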
